A study of Mus musculus with 12 samples.

Results

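The genes described here are 36 listed germline and pluripotency genes. The list is named for genes held silent by DNA methylation outside germ cells and early embryos, which was not checked here for each gene. The list was given by name, and its members were looked up in the deposited log2 expression table, on probe sets annotated to a single gene symbol. Of the 36 genes, 34 were measured among the 22180 genes of the table, each on 1 probe set. Sycp3, a lateral element protein of the synaptonemal complex, lies on a probe set shared with Chpt1, and no probe set was listed for Fkbp6, a co-chaperone of the piRNA pathway, so neither is given a value.

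The study compared leukaemias that the oncogene MLL-AF9 started in mice, with and without additional Dnmt3b, an enzyme that places new methyl groups on cytosines. Affymetrix gene arrays were run on 12 RNA samples. These were c-kit-positive and c-kit-negative cells sorted from each of 3 leukaemias labelled Dnmt3b-knockin (numbers 81, 83 and 85) and from each of 3 leukaemias labelled WT (numbers 73, 75 and 79). The 4 groups are therefore knock-in c-kit-positive, WT c-kit-positive, knock-in c-kit-negative and WT c-kit-negative, with 3 arrays each, and all of them carry MLL-AF9. The labels give no promoter or inducing agent for the knock-in, no age or strain, and no statement that each number is a separate mouse, so p-values measure the spread between these samples only. The titles name bone marrow and the source field names spleen.

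Germline genes work in the formation of eggs and sperm. Their products silence transposons through small RNAs called piRNAs, pair and recombine the chromosomes in meiosis, and hold sister chromatids together there. Many of them have promoters rich in the dinucleotide CpG that are methylated by de novo methyltransferases when the embryo implants, and loss of that methylation is known to switch several of them on in somatic cells. DNA methylation itself was not measured in these values.

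The promoters of the listed genes carried more CpG than most. RefSeq windows of 300 bases, with 250 before and 50 after the annotated start on GRCm38.p6, were on hand for 31 of the 36 genes. Tex15, Spo11, Dppa3, Tdrd6 and Piwil2 had no entry. The median was 20 CpG per window in the listed genes (lowest 10, highest 48), against 7 over all 27025 genes of the promoter table. The windows below are shown for 4 genes to which the later values return: Stag3 varied most among leukaemias, Dazl and Slc25a31 had the smallest p-values between genotypes in c-kit-positive cells, and Stra8 was among the genes with the fewest CpG and differed in one direction between the fractions of every leukaemia. Capitals mark each CpG, and each sequence reads along the strand of its gene. The windows lie at chr5:138280259-138280558 (plus strand) for Stag3, chr17:50293571-50293870 (minus strand) for Dazl, chr3:40708621-40708920 (plus strand) for Slc25a31 and chr6:34920698-34920997 (plus strand) for Stra8.
Stag3: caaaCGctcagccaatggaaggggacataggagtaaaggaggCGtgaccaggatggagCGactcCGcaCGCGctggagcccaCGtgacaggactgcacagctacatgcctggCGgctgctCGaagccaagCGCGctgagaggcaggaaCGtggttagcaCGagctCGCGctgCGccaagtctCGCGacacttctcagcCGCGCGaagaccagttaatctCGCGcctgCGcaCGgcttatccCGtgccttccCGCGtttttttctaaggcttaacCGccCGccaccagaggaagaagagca
Dazl: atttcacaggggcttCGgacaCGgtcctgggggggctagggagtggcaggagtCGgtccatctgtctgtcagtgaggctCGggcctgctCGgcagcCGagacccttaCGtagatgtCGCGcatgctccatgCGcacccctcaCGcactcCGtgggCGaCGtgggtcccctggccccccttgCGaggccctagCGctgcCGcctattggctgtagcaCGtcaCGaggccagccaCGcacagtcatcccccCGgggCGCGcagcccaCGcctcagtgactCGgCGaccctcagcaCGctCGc
Slc25a31: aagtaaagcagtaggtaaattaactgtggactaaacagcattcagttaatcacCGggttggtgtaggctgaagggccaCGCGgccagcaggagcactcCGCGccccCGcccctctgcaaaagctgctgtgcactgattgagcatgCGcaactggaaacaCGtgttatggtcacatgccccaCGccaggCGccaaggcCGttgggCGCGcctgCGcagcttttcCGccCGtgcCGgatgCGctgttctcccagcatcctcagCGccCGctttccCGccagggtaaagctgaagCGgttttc
Stra8: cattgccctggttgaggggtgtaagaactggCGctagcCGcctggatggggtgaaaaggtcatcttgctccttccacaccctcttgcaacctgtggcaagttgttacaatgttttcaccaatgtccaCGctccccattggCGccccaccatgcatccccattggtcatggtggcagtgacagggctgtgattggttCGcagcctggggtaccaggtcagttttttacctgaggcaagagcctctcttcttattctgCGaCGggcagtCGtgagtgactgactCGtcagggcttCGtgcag

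Stag3 has 30 CpG in this window, Dazl 28, Slc25a31 22 and Stra8 10. A pair of motifs known from germline promoters was searched on both strands. They can share an end base, which happened in no window of a listed gene. The first was TCCCGC, part of the site of E2F6, a repressor of meiotic genes. The second was CACGTG, the E-box bound by MGA with MAX, partners of E2F6 in the same repressor complex. TCCCGC was found in 12 of the 31 windows (38.7%), against 20.02% of all windows, and CACGTG in 14 (45.2%), against 7.24%. Both were found in 7 (22.6%), against 2.05% of all windows. CpG content differs between these sets, so the shares were also taken within ranges of CpG. Among windows with 10 to 19 CpG, CACGTG was found in 3 of 15 listed genes (20%), against 10.03% of all windows, and TCCCGC also in 3, against 26.3%. Among windows with 20 to 29 CpG, CACGTG was found in 9 of 13 listed genes (69.2%), against 11.7%, and TCCCGC in 46.2%, against 43.7%. Only 3 listed genes had 30 or more, with CACGTG in 2 and TCCCGC in 3. Stag3 and Slc25a31 hold both motifs, while Dazl and Stra8 hold neither. A match describes the letters of a window and is not evidence of binding.

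The arrays were alike in scale, and 1 leukaemia stood apart. Array medians lay between 5.56 and 5.71 on the log2 scale, and correlations between arrays between 0.928 and 0.986. Dnmt3b, the gene added in the knock-in, averaged 6.40 ± 0.0807 in knock-in and 6.47 ± 0.173 in WT c-kit-positive cells (SD, n = 3 each), and 6.38 ± 0.243 in knock-in and 6.24 ± 0.137 in WT c-kit-negative cells. With both fractions averaged, the difference in Dnmt3b, knock-in minus WT, was 0.03 (limma adjusted p = 0.970), so its level did not separate the leukaemias labelled knock-in. Whether the probes match the added copy is not given in the sources used here. Kit was higher by 1.40 in c-kit-positive than in c-kit-negative cells (adjusted p = 1.05e-05), as the sort labels state. Xist, which coats the silenced X in female cells, read 6.27 and 6.30 in knock-in leukaemia 81, against 9.83 to 11.7 in the other 5 leukaemias. Leaving out leukaemia 81 put no listed gene past the threshold in any comparison.

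Few of the listed genes met the rule for a silent gene. The rule sets each log2 value against the 25th percentile of the whole table, 4.61, which marks a position in the table and is not a detection limit. Of the 34 genes, 6 were under it on all 12 arrays (17.6%), 8 were on either side (23.5%) and 20 were above it on all 12 (58.8%). Over all 22180 genes the shares were 10.9%, 10.7% and 78.4%. Between 8 and 12 listed genes were under the level on any 1 array. Against the median of the table, 5.63, the listed genes lay lower: 23 of 34 were under it on all 12 arrays (67.6%), against 34.4% of all genes, and 6 were above it on all 12 (17.6%), against 46.1%. A value above the 25th percentile does not show that a gene is expressed, and a value under it does not show methylation. All 4 measured Sertoli and Leydig cell markers were also above it on all 12 arrays, as were 13 of 17 spermatid genes. Log2 values of different probe sets depend on their probes, so levels are not ranked between genes here. The plot of all log2 values by group shows each gene's 12 values beside both levels.

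**Figure D1:**
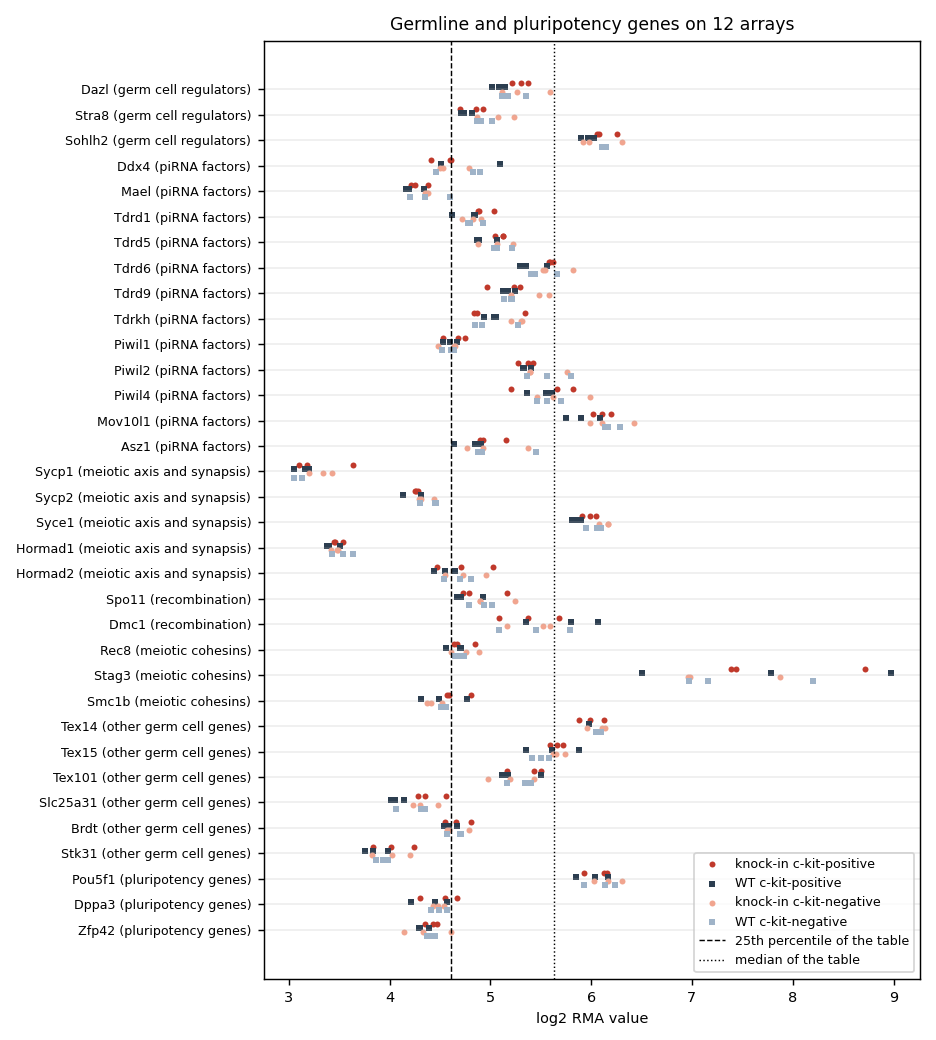
Log2 RMA values (x axis) of the 34 measured genes (rows, with their role) on 12 arrays, with knock-in c-kit-positive, WT c-kit-positive, knock-in c-kit-negative and WT c-kit-negative arrays drawn as separate marks, 3 arrays each. The dashed line is the 25th percentile of the table (4.61) and the dotted line its median (5.63). 6 genes lie left of the dashed line on all arrays, and Stag3 spans 6.50 to 8.97.

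Among the regulators of germ cell fate, all 3 were above the 25th percentile on every array. Dazl, an RNA-binding protein that licenses germ cells, ranged over 5.01 to 5.59. Stra8, the gatekeeper of meiotic entry induced by retinoic acid, ranged over 4.70 to 5.23. Sohlh2, a transcription factor of spermatogonia and oocytes, ranged over 5.90 to 6.31 and was above the table median on all 12 arrays.

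Of the 12 measured piRNA factors, 9 were above the 25th percentile on all arrays, 2 were mixed and 1, Mael, was under it throughout, at 4.17 to 4.60. Mael and the Tudor domain proteins act in the cytoplasmic granules where piRNAs are made. Tdrd1 ranged over 4.62 to 5.04, Tdrd5 over 4.86 to 5.23, Tdrd6 over 5.29 to 5.82, Tdrd9 over 4.96 to 5.58 and Tdrkh over 4.83 to 5.34. Piwil2, a PIWI protein that binds piRNAs, ranged over 5.27 to 5.80, and Piwil4, which carries piRNAs into the nucleus, over 5.20 to 5.99. Mov10l1, the helicase that starts piRNA processing, ranged over 5.75 to 6.43 and was above the median on all arrays, and Asz1, a piRNA factor of the mitochondrial surface, over 4.64 to 5.45. Ddx4, the germ cell RNA helicase also called vasa, lay on both sides of the level at 4.41 to 5.09, and so did Piwil1 at 4.48 to 4.75.

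The structural proteins of paired meiotic chromosomes held 3 of the 6 genes that were low on every array. Sycp1, which zips the chromosomes together, ranged over 3.05 to 3.64, Sycp2, of the lateral element, over 4.14 to 4.46, and Hormad1, which monitors pairing, over 3.38 to 3.64. Hormad2 was mixed at 4.44 to 5.02. Syce1, of the central element, was above the median on all arrays at 5.81 to 6.17. Both recombination genes were above the 25th percentile throughout: Spo11, which cuts DNA to start meiotic recombination, at 4.67 to 5.25, and Dmc1, the meiotic strand-exchange recombinase, at 5.08 to 6.07.

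Of the meiotic cohesin subunits, Rec8 was mixed at 4.56 to 4.88, with 1 array under the level, and Smc1b was mixed at 4.31 to 4.81. Stag3 was above the table median on all 12 arrays. Among the other germ cell genes, Slc25a31, an ADP/ATP carrier of sperm mitochondria, was low throughout at 4.01 to 4.56, as was Stk31, a kinase-like protein of the testis, at 3.76 to 4.24. Brdt, a bromodomain protein of the testis, was mixed at 4.54 to 4.81. Tex14, which keeps the bridges between germ cells open, ranged over 5.88 to 6.13, Tex15, a factor of transposon silencing in the male germ line, over 5.36 to 5.88, and Tex101, a germ cell surface protein, over 4.98 to 5.50. Of the pluripotency genes, Pou5f1 (Oct4) ranged over 5.85 to 6.31, while Dppa3 at 4.22 to 4.67 and Zfp42 (Rex1) at 4.15 to 4.61 were each under the level on 11 of 12 arrays.

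Stag3 was the listed gene that varied most, and its values overlapped between the genotypes. In c-kit-positive cells it read 8.72, 7.44 and 7.39 in knock-in leukaemias 81, 83 and 85, and 7.78, 8.97 and 6.50 in WT leukaemias 73, 75 and 79. In c-kit-negative cells it read 7.88, 6.96 and 6.98 in the knock-in and 7.16, 8.20 and 6.97 in the WT leukaemias. Each genotype had 1 leukaemia that was high in both fractions, 81 and 75, and the genotypes overlapped in both fractions. The 12 values spanned 2.47 on the log2 scale, a 5.54-fold range. Their SD of 0.754 stood at the 99.3 percentile of the SDs of all genes. Dmc1 followed with an SD of 0.308, and no other listed gene spanned more than 0.806. The median SD was 0.147 in the listed genes and 0.166 over all genes. In the RefSeq gene table the gene Gpc2 lies within the span of Stag3, and it read 5.85 to 6.17 over the 12 arrays.

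**Figure D2:**
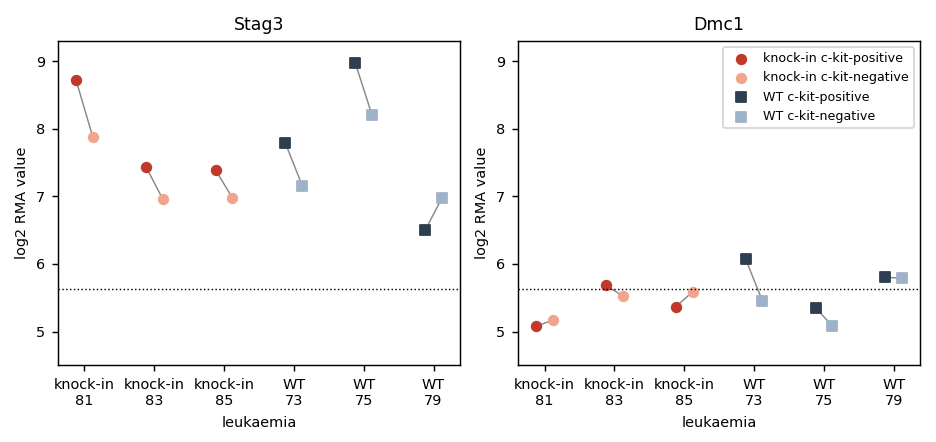
Log2 RMA values (y axis) of Stag3 (left) and Dmc1 (right) in each leukaemia (x axis, 3 knock-in and then 3 WT), with a line joining the c-kit-positive and the c-kit-negative array of a leukaemia and a dotted line at the table median (5.63). Stag3 was higher in c-kit-positive cells in 5 of 6 leukaemias, and leukaemia 79 went the other way.

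Between genotypes, no listed gene differed past the threshold in c-kit-positive cells, where leukaemia-initiating cells are usually sought. With limma's test over all genes and a threshold of adjusted p 0.05, 0 of 34 genes passed, beside 0.108% of all genes. At an unadjusted p under 0.05 there was 1, Slc25a31, beside 9.21% of all genes. Slc25a31 read 4.35, 4.28 and 4.56 in knock-in and 4.06, 4.14 and 4.01 in WT c-kit-positive cells. Every knock-in value was above every WT value, and all were below the 25th percentile of the table. Its means were 4.40 ± 0.145 and 4.07 ± 0.0656 (SD, n = 3 each), a log2 difference of 0.33 (95% interval 0.09 to 0.57, adjusted p = 0.350).

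The next smallest p-values were those of Dazl, Tdrd6 and Dmc1. Dazl read 5.21, 5.37 and 5.31 in knock-in and 5.08, 5.15 and 5.01 in WT c-kit-positive cells, with no overlap, and differed by 0.22 (interval -0.05 to 0.48, adjusted p = 0.649). Tdrd6 averaged 5.599 ± 0.0225 in knock-in and 5.40 ± 0.144 in WT cells, a difference of 0.20 (adjusted p = 0.657), also with no overlap. Dmc1 was the other way, at 5.08, 5.68 and 5.37 in knock-in and 6.07, 5.35 and 5.80 in WT cells, a difference of -0.36 (adjusted p = 0.674), and its groups overlapped. Stag3 differed by 0.10, with an interval of -1.08 to 1.27, and its difference was below 0 without leukaemia 79 (-0.53) or 81 (-0.34). For 33 of the 34 genes the 95% interval stayed within 1 log2 unit of 0, and for 28 within 0.5, so Stag3 is the gene for which these samples leave the widest range.

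Small positive differences were common in that comparison. The difference, knock-in minus WT, was positive for 31 of 34 genes (91.2%), against 54.6% of all genes and 63.9% of the genes whose mean was under the table median. Their median difference was 0.095, against 0.018 over all genes. The count was 28 of 34 (82.4%) with the arrays centred on their medians and 27 (79.4%) with quantile normalization repeated. Of the genes with a mean under the table median, 51.8% were positive after centring and 50.1% after repeated quantile normalization. In 6 genes every knock-in value was above every WT value (Dazl, Slc25a31, Sohlh2, Syce1, Tdrd1 and Tdrd6) and in none were all of them below. Beside them, groups did not overlap in 16.4% of all genes, with 7.54% higher in the knock-in. The leukaemias are shared by all 34 genes, so the genes are not independent counts.

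In c-kit-negative cells the differences were of both signs. There, 0 of 34 genes passed limma's threshold (background 0.0451%), and 0 had an unadjusted p under 0.05 (background 5.92%). Knock-in minus WT was positive for 15 of 34 genes (44.1%), against 50.5% of all genes and 57.8% of genes with a mean under the table median, and the median difference was -0.01. Leaving out 1 leukaemia moved that count to between 12 (without 85) and 23 (without 81), and the median without 81 was 0.053. Genes with a mean under the table median moved in the same way. Without 85, 35.3% of the listed genes and 42.2% of those genes were positive. Without 81 the shares were 67.6% and 68.7%. The smallest p-values were those of Tdrd9 (difference 0.24, adjusted p = 0.854), Tdrkh (0.26, 0.884), Sycp1 (0.22, 0.903) and Tex15 (0.17, 0.932). Sycp1 read 3.43, 3.34 and 3.20 in knock-in and 3.05, 3.13 and 3.13 in WT c-kit-negative cells, and Tex15 5.65, 5.74 and 5.62 in knock-in and 5.41, 5.59 and 5.50 in WT cells. These were the 2 genes whose groups did not overlap, both higher in the knock-in, beside 8.74% of all genes in either direction and 4.31% in the higher one.

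With both fractions of a leukaemia averaged, which leaves 3 leukaemias against 3, 0 of 34 genes passed limma's threshold (background 0.018%) and 1, Sycp1, had an unadjusted p under 0.05 (background 7.84%). Sycp1 averaged 3.31 ± 0.099 in knock-in and 3.12 ± 0.0298 in WT leukaemias, a difference of 0.19 (adjusted p = 0.624). Slc25a31 followed with 0.21 (adjusted p = 0.672), then Tdrd6 and Dazl with 0.16 each (adjusted p = 0.768 and 0.770). The leukaemias did not overlap in 4 genes, Slc25a31, Syce1, Sycp1 and Tdrd1, each higher in the knock-in (background 12.4% in either direction and 5.63% in the higher one). The difference was positive for 29 of 34 genes (85.3%), against 55.1% of all genes and 65.1% of genes with a mean under the table median. After centring it was positive for 24 (70.6%), against 53.6% of the genes under the median. After repeated quantile normalization it was positive for 21 (61.8%), against 51.4%. Without leukaemia 85 it was positive for 19 (55.9%), where 47.6% of the genes under the median were positive. The plot of genotype differences sets these estimates side by side.

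**Figure D3:**
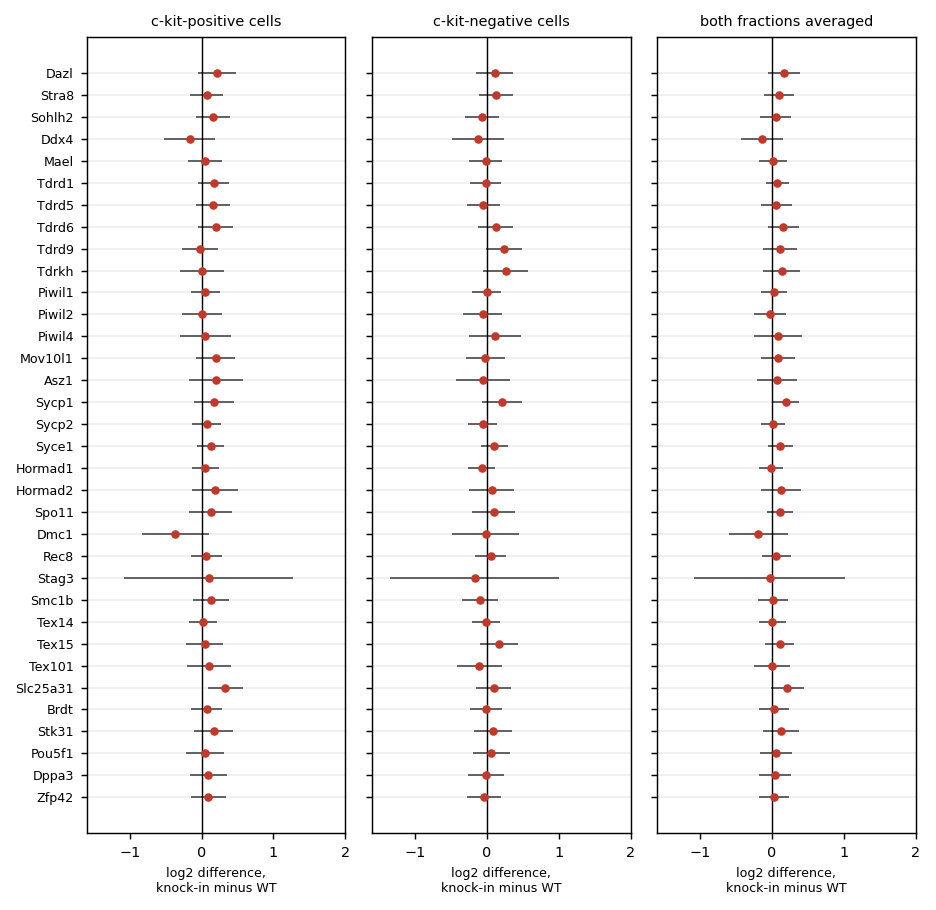
Log2 difference, knock-in minus WT (x axis), of each measured gene (rows) in c-kit-positive cells, in c-kit-negative cells and with both fractions averaged per leukaemia (panels), with 95% intervals from limma and 3 samples a group. No gene passed an adjusted p of 0.05, and the widest interval is that of Stag3, -1.08 to 1.27 in c-kit-positive cells.

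Between the fractions of a leukaemia, the listed genes also differed little. Taken over all 6 leukaemias, 0 of 34 genes passed limma's threshold, beside 6.75% of all genes. At an unadjusted p under 0.05 there were 3 (Syce1, Stra8 and Sycp2), beside 21.5% of all genes. This fit had no term for the leukaemia, so its p-values, here and in the next paragraph, ignore the pairing of the fractions. With the leukaemia as a replicate block 16.7% of all genes passed, and of the listed genes only Stag3 did. Stra8 averaged 4.79 ± 0.0908 in c-kit-positive and 4.996 ± 0.143 in c-kit-negative cells (SD, n = 6 each), a difference of -0.21 (95% interval -0.37 to -0.04, adjusted p = 0.135). By leukaemia the difference was -0.18, -0.15 and -0.38 in knock-in 81, 83 and 85, and -0.09, -0.28 and -0.16 in WT 73, 75 and 79. Stra8 was thus lower in c-kit-positive cells in 6 of 6 leukaemias.

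Syce1 averaged 5.92 ± 0.0846 in c-kit-positive and 6.08 ± 0.0834 in c-kit-negative cells, a difference of -0.17 (adjusted p = 0.131), and was also lower in 6 of 6. The same held for Tex14, which makes 3 of 34 genes with 1 direction in every leukaemia (8.82%), against 19.9% of all genes. Sycp2 differed by -0.14 (adjusted p = 0.227) and Piwil2 by -0.19 (adjusted p = 0.247). The difference was positive for 8 of 34 genes (23.5%), against 39.6% of all genes and 26.1% of genes with a mean under the table median. After centring it was positive for 13 (38.2%), against 42.1% of the genes under the median. After repeated quantile normalization it was positive for 14 (41.2%), against 42.5%.

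Stag3 is the gene whose call depends on the pairing of the fractions. It averaged 7.80 ± 0.917 in c-kit-positive and 7.36 ± 0.541 in c-kit-negative cells, a difference of 0.44 (95% interval -0.39 to 1.27, adjusted p = 0.539). By leukaemia it was 0.84, 0.48 and 0.41 in knock-in 81, 83 and 85, and 0.62, 0.77 and -0.47 in WT 73, 75 and 79. With the leukaemia as a replicate block the adjusted p was 0.0471, and Stag3 was then the 1 listed gene called, beside 16.7% of all genes. Leaving out leukaemia 79 as well gave 0.64 (adjusted p = 0.000781). Leaving out any one of the other 5 leukaemias gave adjusted p of 0.0761 to 0.180, so the paired call was lost each time.

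Within each genotype the result was the same in count. The p-values and backgrounds below come from the fit without the replicate block, which ignores the pairing of the fractions. With the leukaemia as a replicate block no listed gene was called within a genotype either. The block called 7.25% of all genes in knock-in and 8.99% in WT leukaemias. In knock-in leukaemias, 0 of 34 genes passed limma's threshold (background 1.5%) and 2 had an unadjusted p under 0.05 (background 11.7%), Tdrd9 (-0.26, adjusted p = 0.407) and Stra8 (-0.23, adjusted p = 0.420), followed by Smc1b (0.22, 0.510) and Tdrkh (-0.26, 0.529). Smc1b was higher in c-kit-positive cells without overlap, and Syce1 and Sycp2 were lower without overlap (background 13% in either direction and 6.52% in each). In WT leukaemias, 0 of 34 passed (background 0.537%) and 2 had an unadjusted p under 0.05 (background 14.9%), Mov10l1 (-0.29, adjusted p = 0.300) and Sycp2 (-0.21, adjusted p = 0.316), followed by Syce1 (-0.18, 0.361) and Piwil2 (-0.22, 0.435). Mov10l1, Sohlh2, Stra8, Syce1 and Tex14 were lower without overlap (background 26.1% in either direction and 13.3% in the lower one). The plot of fraction differences shows both genotypes beside the pooled estimate.

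**Figure D4:**
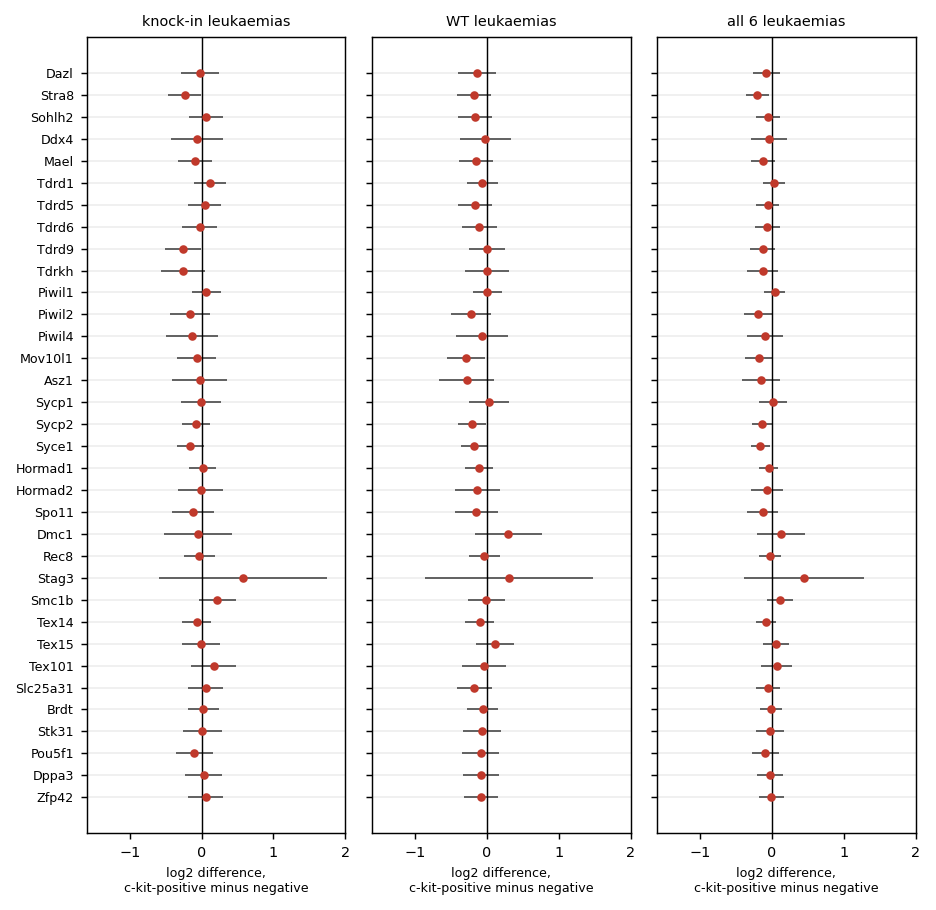
Log2 difference, c-kit-positive minus c-kit-negative (x axis), of each measured gene (rows) in knock-in leukaemias, WT leukaemias and all 6 leukaemias (panels), with 95% intervals from limma without a replicate block. Without the block no gene passed an adjusted p of 0.05. Over all 6 leukaemias Stag3 had the largest difference, 0.44, and Stra8 the lowest, -0.21.

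The direct test of whether the fraction difference depends on genotype called 0 of 34 genes and 0 of all genes (0%). At an unadjusted p under 0.05 there were 0 listed genes, beside 2.34% of all genes. This test also ignored the pairing of the fractions, and with the leukaemia as a replicate block it again called 0 of all genes. The smallest p-values were those of Tdrd9 (knock-in minus WT difference of differences -0.26), Sohlh2 (0.23), Slc25a31 (0.23) and Tdrd5 (0.21), each with a limma adjusted p of 1.0. The leukaemias did not overlap for Brdt, Slc25a31, Sohlh2 and Tdrd5, higher in the knock-in, or for Tdrd9, lower (background 10.9% in either direction, 5.78% higher and 5.16% lower).

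Further genes of the same pathways were counted in the same way. None of the 11 other piRNA factors, 30 other meiotic factors, 16 other germ cell regulators, 17 other pluripotency genes, 17 spermatid genes, 13 X-linked germline genes or 24 repressors of germline genes passed the threshold in any genotype comparison. With both fractions averaged, the smallest p-values in these lists belonged to Henmt1 (difference -0.16) and Tdrd12 (0.13), Terb1 (0.18) and Syce2 (-0.27), Taf4b (-0.28) and Nanos1 (0.28), Klf2 (-0.95) and Tdgf1 (0.14), Tnp2 (0.18) and Catsper1 (-0.16), Rhox13 (-0.14) and Rhox6 (0.26), and Rnf2 (-0.36) and L3mbtl2 (-0.23). Their limma adjusted p ranged from 0.345 to 0.821. By level, 7 of the 30 other meiotic factors, 4 of the 16 regulators, 2 of the 17 spermatid genes, 1 of the 17 pluripotency genes, 1 of the 13 X-linked genes and 0 of the 11 piRNA factors were under the 25th percentile on all arrays.

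Between fractions over all 6 leukaemias, 6.75% of all genes passed the threshold in the fit without the replicate block, which ignores the pairing. In that fit 1 gene passed in the meiotic and 1 in the pluripotency list, shares below that background. These lists were not counted with the block, which called 16.7% of all genes. Syce2, a central element protein, was higher by 0.46 in c-kit-positive cells (adjusted p = 0.0323), 1 of 30 other meiotic factors. Klf4, a pluripotency factor that also acts in monocytes, was lower by 0.93 in c-kit-positive cells (difference -0.93, adjusted p = 0.00526), 1 of 17. Of the 24 repressors, 7 were higher in c-kit-positive cells (29.2%, against 4.78% of all genes called higher) and 0 lower, with a median difference of 0.30 over the list, against -0.04 over all genes. The 4 with the smallest p were Tfdp1, a partner of E2F factors (0.83, adjusted p = 0.00481), Uhrf1, which brings Dnmt1 to newly copied DNA (0.81, 0.00840), Hdac2, a histone deacetylase (0.74, 0.0170), and Dnmt1, the maintenance methyltransferase (0.80, 0.0275). The other genes of the first 6 lists did not pass. Myeloid markers moved with the same fractions: of 10, 3 were higher and 3 lower in c-kit-positive cells. Kit (1.40) was 1 of the higher ones, and its direction was set by the sort itself. The others were Mpo (2.85) and Elane (1.61), which were higher, and Csf1r (-1.46), Ptprc (-0.75) and Itgam (-0.62), which were lower. Their part in the differences of Syce2, Klf4 and the repressors was not tested.

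All 10 markers of leukaemic myeloid cells were above the 25th percentile on all 12 arrays, beside 78.4% of all genes. The same held for all measured markers of B cells (4), stroma and endothelium (6) and Sertoli and Leydig cells (4). This position therefore does not tell the cell types apart. Markers of other cell types were read beside these values. The mean log2 level of 4 measured B cell markers was 7.19 in the c-kit-negative cells of knock-in leukaemia 81, against 6.14 to 6.44 on the other 11 arrays. That of 5 T cell markers was 5.33 on the same array, against 4.91 to 5.27 on the others. The 4 measured Sertoli and Leydig cell markers had a mean level of 5.64 to 5.98 in knock-in and 5.57 to 5.83 in WT samples, and none passed the threshold in any comparison. In bulk samples fewer cells of a type and less RNA per cell cannot be told apart, and the part of these cells in the differences above was not tested.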

How the data were processed

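The deposited table holds log2 values of 41345 probe sets on 12 arrays. Per the submitters' processing notes, the authors made these log2 values with RMA in Affymetrix Expression Console. Versions, array batches and scan times are not given in the sources used here. 0 columns belonged to other samples.

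Probe sets were named through the platform annotation: 23521 had 1 symbol, 1814 had several and 16010 were unlisted. The probe set with the highest mean was kept per gene, giving 22180 genes with no filter on level. limma 3.58.1 in R 4.3.3 (statmod 1.5.0) fitted 4 group means over 12 arrays with lmFit and eBayes, two-sided, with Benjamini-Hochberg adjustment over all genes and a threshold of 0.05. Genotype over both fractions was fitted on the mean of each leukaemia's arrays. The scripts were tested on simulated data. Intervals are limma's 95% intervals, and the number of arrays limits the precision.

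The number in a title pairs the fractions of a leukaemia: deviations from group means correlated at 0.259 to 0.586 within a leukaemia, and at most at -0.0369 between leukaemias. Such deviations cancel within a group, so positive values within a leukaemia force negative ones between leukaemias. The negative values are therefore no separate support for the pairing. Members and lists were chosen with earlier results of these data known. Every measured gene was given by its range, and for each comparison the 4 smallest p-values, all genes past the threshold and those without overlap were named. Of the other lists up to 4 genes past the threshold were named, or the 2 smallest p-values over both fractions. Each sentence with an adjusted p refers to limma's test. Mpo was chosen after its values were seen. Alternatives were a filter on level, array centring, repeated quantile normalization, the mean of a gene's probe sets, eBayes with trend and robust, the leukaemia as replicate block and leaving out each leukaemia. Promoters came from RefSeq, with the first-listed window per gene.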

Additional observations from a re-analysis of the deposited data

Results flagged for a closer look

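In 5 of the 34 genes, 1 of the 6 leukaemias lay far from the others in its difference between fractions, c-kit-positive minus c-kit-negative. The gap to the nearest leukaemia was compared with the whole range, and chance alone picks about 1 in 20 such groups. The share of all genes that meet this rule was not computed. All genes share the same 6 leukaemias, so the count is not a result about the listed genes. Stag3 was -0.47 in WT leukaemia 79, against 0.41 to 0.84 in the other 5. Mael was -0.41 in WT leukaemia 73, against -0.14 to 0.01. Tex15 was 0.47 in WT leukaemia 73, against -0.15 to 0.08. Stk31 was -0.23 in WT leukaemia 79, against -0.03 to 0.05. Tex14 was -0.0089 in knock-in leukaemia 85, against -0.12 to -0.08.

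Slc25a31 was flagged because its fraction difference had opposite signs in the genotypes. The fraction difference averaged 0.057 in knock-in leukaemias, where it was positive in 3 of 3, and -0.17 in WT leukaemias, where it was negative in 3 of 3. By leukaemia it was 0.043, 0.045 and 0.082 in knock-in 81, 83 and 85, and -0.26, -0.21 and -0.055 in WT 73, 75 and 79. The difference of the differences was 0.23, and limma's interaction test gave an adjusted p of 1.0. A difference in direction between the genotypes was therefore not shown. The gene was under the 25th percentile of the table on all 12 arrays. The share of all genes with such opposite signs was not computed.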

How the results depend on the processing

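The count of listed genes past the threshold was 0 in 90 of 91 fits, made of 7 comparisons under 13 settings. The filter on level kept 25 of 34 genes. The exception was the leukaemia as replicate block over all 6 leukaemias, with 1 gene, Stag3 (0.44, limma adjusted p = 0.0471). The block combined with leaving out each leukaemia, chosen after seeing the data, gave 0 to 1 genes. The block changed no other call. Over all genes it moved the count of calls between fractions to 3704, against 1498 without it, and leaving out 1 leukaemia gave 427 (without 73) to 2018 (without 81).

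Signs of small differences changed often, and none of the changed values passed the threshold. Of 34 genes, 12 changed sign under at least 1 alternative for genotype in c-kit-positive cells, 22 in c-kit-negative cells and 18 over both fractions, at most 12 under any single one (without 85, both fractions). For fraction it was 12 in WT, 17 in knock-in and 10 in all leukaemias, and for the interaction 14. Ddx4 in c-kit-positive cells was 0.031 without 79, against -0.16. Among the genes named with the smallest p-values, and Stag3 and Dmc1, which were followed throughout, the reversals were those of Stag3 and of Dmc1. Leaving out 1 leukaemia, Stag3, knock-in minus WT, lay between -0.53 (without 79) and 0.71 (without 75) in c-kit-positive cells, below 0 also without 81 (-0.34). It lay between -0.47 (without 81) and 0.21 (without 75) in c-kit-negative cells. Over both fractions it lay between -0.47 (without 79) and 0.46 (without 75), above 0 also without 83 (0.14) and 85 (0.15). Its interaction lay between -0.12 (without 79) and 0.50 (without 75). Dmc1, knock-in minus WT, lay between -0.19 (without 75) and 0.16 (without 79) in c-kit-negative cells, above 0 also without 81 (0.12). Its fraction difference in knock-in leukaemias lay between -0.15 (without 83) and 0.035 (without 85).

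The count of genes under the level on all arrays was 2 at the 10th percentile, 12 at the 25th percentile of the genes kept and 23 at the median, against 6, by the construction of these levels. It was 6 to 8 when a leukaemia was left out, 8 without 85. The median difference of the listed genes, leaving out 1 leukaemia at a time, lay between 0.065 and 0.14 for genotype in c-kit-positive cells, -0.023 and 0.055 in c-kit-negative cells and 0.013 and 0.094 over both. It lay between -0.044 and -0.0035 for fraction in knock-in, -0.11 and -0.079 in WT and -0.069 and -0.051 in all leukaemias, and between 0.059 and 0.085 for the interaction. With 3 arrays a group, differences well under 0.5 could not be told from 0 for most genes.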

Other observations

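Stag3 and Mpo, the myeloperoxidase of granulocyte precursors, put the leukaemias in a similar order in c-kit-positive cells. Mpo was picked after its values were seen, so the likeness is a description only. In c-kit-positive cells Mpo read 11.6, 9.92 and 10.6 in knock-in leukaemias 81, 83 and 85, and 11.4, 11.7 and 9.16 in WT leukaemias 73, 75 and 79. Leukaemias 75, 81 and 73 were the highest for both genes, in that order, and 79 was the lowest for both. The myeloid markers Ptprc, Kit, Cebpa and Spi1 did not share this order in c-kit-positive cells. Elane, Itgam, Csf1r, Cd33 and Fcgr3 were not compared by leukaemia, so whether the order is particular to Mpo is not known. Ptprc (8.37) and Kit (8.34) were highest in leukaemia 79. Cebpa was higher in 79 (6.04) than in 81 (5.93), and Spi1 was higher in 79 (8.78) than in 75 (8.64). In c-kit-negative cells Mpo read 9.11, 7.34 and 7.95 in the knock-in and 7.59, 8.38 and 6.87 in the WT leukaemias. There the order differed: 81 was the highest for Mpo and 75 for Stag3, and 79 was the lowest for Mpo and 83 for Stag3. Unlike Stag3, Mpo was lower in the c-kit-negative cells of leukaemia 79 than in its c-kit-positive cells. Whether the myeloid stage of the cells has a part in the Stag3 values was not tested.

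The probe set of Odf1, an outer dense fibre protein of the sperm tail, read 10.7 to 11.2 on all 12 arrays, with an SD of 0.173. It was picked for its level from the 17 measured spermatid genes. Log2 values depend on the probes, so this level alone does not show that the gene is expressed.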
